A study of Homo sapiens with 10 samples.

Results

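The first 350 bases of human 18S rRNA, the start of its 5′ domain, were examined base by base in RibOxi-seq libraries of PA1 cells. All positions numbered 1 to 350 were taken, which are 350 of the 6939 positions of 18S and 28S that the data cover, or 5.04%. Among them are 8 annotated 2′-O-methylation sites, of 40 in 18S and 106 in both rRNAs together: A27, A99, U116, U121, A159, A166, U172 and C174. PA1 is an established human cell line from an ovarian teratoma, and no part of its identity can be checked from rRNA counts. The cells were untreated and the groups differ only in what was done to their RNA: control libraries were made without oxidation, and oxidized libraries with it. By the study's protocol, control RNA went from fragmentation straight to linker ligation. Oxidized RNA, taken in a larger amount, also passed through oxidation, β-elimination, phosphate removal and a final oxidation. A ratio of oxidized to control therefore spans all these steps. The NextSeq experiment has 3 control and 3 oxidized libraries, of which replicates 1 and 2 of each group came from passage 6 and replicate 3 from passage 4. The MiSeq pilot has 2 control and 2 oxidized libraries, all from passage 7. Sequencer, passage and amount of input RNA change together between the experiments, so their parts in any difference between them cannot be told apart.

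Ribose 2′-O-methylation is placed on rRNA by fibrillarin in box C/D snoRNPs. The small nucleolar RNA in each particle pairs with the rRNA next to its D or D′ box, and the nucleotide paired with the fifth guide base upstream of the box receives the methyl group. In RibOxi-seq, Benzonase cuts the RNA at random, one round of oxidation and β-elimination shortens the fragments, and a final periodate oxidation destroys every 3′-end that lacks a 2′-O-methyl group. Only fragments that end in a methylated nucleotide can then be ligated, so oxidized libraries count methylated 3′-ends and control libraries count all of them. A nuclease does not cut directly 3′ of a 2′-O-methylated nucleotide, which leaves a dip at such a site in control libraries. Ligation also depends on the end sequence, so levels at different sites do not rank the sites by degree of methylation.

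The 8 sites are printed here with 10 bases on each side, since the counts at and next to these letters carry the comparisons at the sites. They were read from hg19 (GRCh37), where positions 1 to 350 are bases 109078 to 109427 of the unplaced contig with the rRNA genes, plus strand, and again 153050 to 153399 in a second copy that differs at 0 of these bases. All 8 sites lie in the 18S rRNA gene, which has neither introns nor UTRs. Capitals mark the site and any other annotated site within the stretch, and the sequence runs 5′ to 3′.
A27: ccaguagcauAugcuugucuc
A99: cgaauggcucAuuaaaucagu
U116: caguuaugguUccuuUggucg
U121: augguUccuuUggucgcucgc
A159: aacugugguaAuucuagAgcu
A166: guaAuucuagAgcuaaUaCau
U172: cuagAgcuaaUaCaugccgac
C174: agAgcuaaUaCaugccgacgg

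Of these 8 sites 4 are A, 3 are U, 1 is C and 0 are G, in a stretch that holds 68 A, 79 U, 106 C and 97 G. A27 stands alone, 72 bases before A99. The other 7 lie within 76 bases, from A99 to C174, and the next annotated 18S site after C174 is at 428, so the last 176 of the 350 positions carry none. U116 and U121 are 5 bases apart and U172 and C174 only 2, with A173 between them.

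The snoRNAs assigned to the sites are U27 for A27, U57 for A99, U42A/B for U116, mgh18S-121 and Z17B (SNORD4A and SNORD4B) for U121, U45A/C for A159, U44 for A166, U45A/B for U172, and SNORD45C for C174. In the GENCODE annotation of hg19, 7 of these 10 snoRNAs were found among genes of type snoRNA with status KNOWN. The others may still be annotated there in another way. The guides of U116 and U121 lie together on chromosome 17, among them SNORD42A at chr17:27050447-27050510 and SNORD4A at chr17:27049600-27049671. The guides of A159, U172 and C174 lie together on chromosome 1, with SNORD45C at chr1:76252757-76252835, SNORD45A at chr1:76253574-76253657 and SNORD45B at chr1:76255162-76255233, all on the plus strand. The stretches of SNORD45A and SNORD45C that pair around U172 and C174 are shown because the sites are so close. Capitals mark the base paired with the site and the box CUGA.
SNORD45A with U172: ggcauguAuuauCUGA
SNORD45C with C174: ggcauGuauuCUGA
The same 10 letters open both guides, and in SNORD45C the box follows them directly, 2 bases earlier than in SNORD45A. In every snoRNA found, the base paired with the annotated site is number 5 upstream of CUGA.

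The deposited value at a position is described as the number of sense reads whose 3′-end aligns there. Total counts over 18S and 28S were 72458614, 80964624 and 75495510 in NextSeq control replicates 1 to 3 and 13237673, 12293410 and 13694386 in the oxidized ones. They were 44061905 and 30392418 in the MiSeq controls and 1568883 and 1353768 in the MiSeq oxidized libraries. Positions 1 to 350 held 0.747%, 0.763% and 0.681% of them in NextSeq control replicates 1 to 3 and 1.06%, 1.19% and 1.19% in the oxidized ones, an oxidized mean of 1.15% ± 0.0749 (SD, n = 3) against 0.73% ± 0.0435. In the MiSeq libraries the shares were 0.266% and 0.288% in control and 0.528% and 0.579% in oxidized replicates. The share was thus higher in every oxidized than in every control library of its experiment, and the exact two-sided permutation test gave the smallest p the designs allow, 0.1 for 3 against 3 and 1 in 3 for 2 against 2.

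The values do not behave as single reads, although they are described as reads, and the sources used here do not say why. Of the 1626 values above 0 and under 500 counts in these positions, 56.5% lay at a multiple of 50 or up to 10 above one, and 52, 51 and 45 positions of the oxidized NextSeq libraries held exactly 2 counts. Part of that share is values of 1 to 10 counts, which lie just above 0 and show no steps of 50. The share expected without steps is not given. On this reading of the values, a level of fewer than 3 steps of 50 was treated as the floor. It amounts to 1.85 to 2.07 CPM (counts scaled to a library total of 1000000) in NextSeq control, 10.9 to 12.2 in NextSeq oxidized, 3.4 to 4.93 in MiSeq control and 95.6 to 110.8 in MiSeq oxidized libraries, and it covers counting error only. The labels place NextSeq replicate 3 in another passage but do not say whether replicates of 1 passage are separate cultures. The study's protocol advises 3 or more technical replicates of control and of oxidized RNA, divided after fragmentation. The p-values therefore measure the spread between these samples, which may be technical.

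Some libraries stood apart. NextSeq control replicate 3 ordered the 350 positions unlike replicates 1 and 2 (Spearman's rho 0.437 and 0.443, against 0.943 between replicates 1 and 2; 350 positions of the same RNA, given as a description). A and U, which are 40.9% of the positions outside the sites, took 14.9% and 15% of what was counted there in NextSeq control replicates 1 and 2 but 55.1% in replicate 3, and 38.2% and 39.1% in the MiSeq controls. Oxidized NextSeq replicates 2 and 3 were nearly alike over all of 18S and 28S although their passages differ. In steps of 50, their chi-square per degree of freedom was 1.15 (p = 0.0123) over positions with at least 10 steps and 1.03 (p = 0.256) with at least 5, against 11.6 and 11.1 between replicate 1 and these over positions with at least 10. Within the 350 positions, where 10 positions have that many steps, it was 1.2 between replicates 2 and 3 and 1.22 and 0.34 between replicate 1 and these, so there replicate 1 did not stand apart. In the MiSeq oxidized pair it was 1.05 over all of 18S and 28S (chi-square p = 0.179, over positions and not an exact test over samples). Within the 350 positions this pair was at 0.776 (chi-square p = 0.589). NextSeq control replicates 1 and 2, of the same passage, were about as close, at 1.123 over all positions (p = 1.67e-10) and 0.874 within the 350 (p = 0.881), again chi-square over positions and not an exact test over samples. All were kept as separate libraries because the count of a step is itself uncertain, and results that change with either NextSeq pair taken as 1 library are given that way too.

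**Figure D1:**
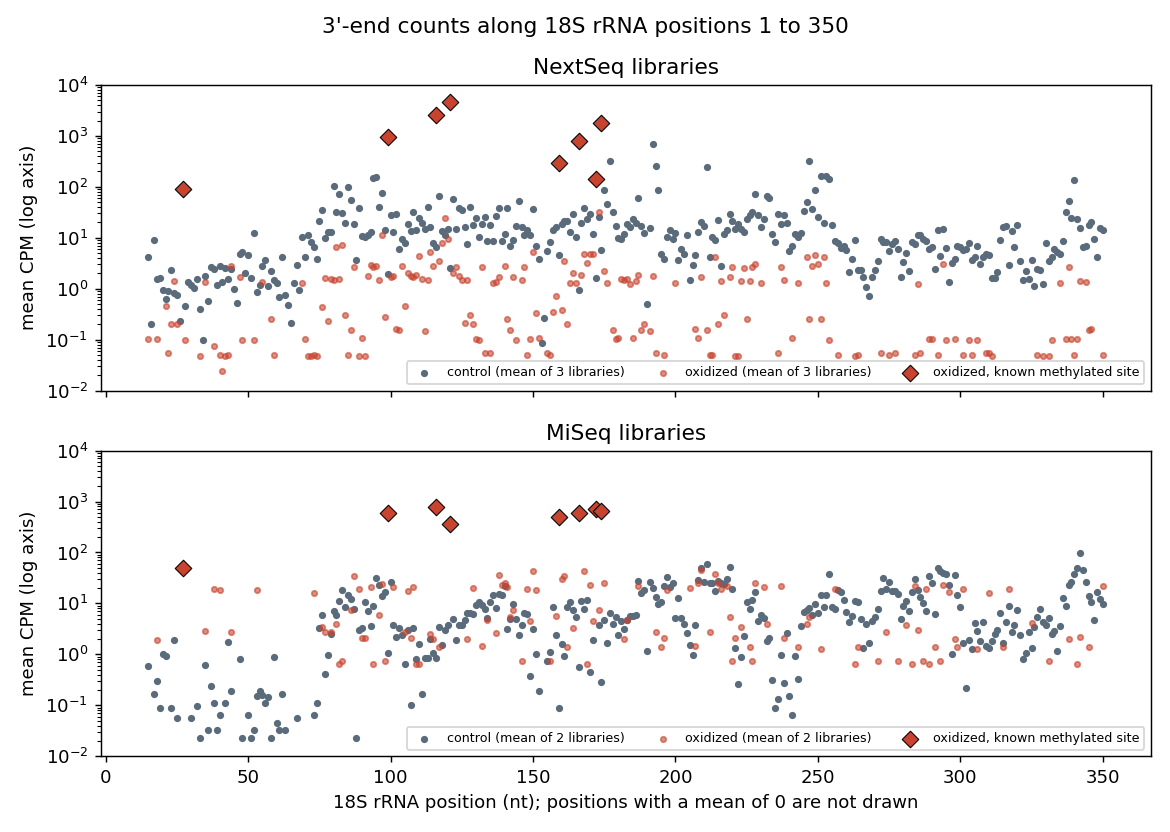
Mean CPM (log axis) at 18S positions 1 to 350 in control (grey) and oxidized libraries (red), for the NextSeq (n = 3 each) and MiSeq (n = 2 each) experiments, with the 8 known sites as diamonds. All 8 diamonds stand above the other oxidized means, A27 in MiSeq only narrowly (50.3 against 44.5 CPM at A209), and positions 1 to 14 are empty in every library.

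In the oxidized NextSeq libraries nearly all counts of positions 1 to 350 fell on the 8 sites. They held 97.5%, 97.2% and 97.2% in oxidized replicates 1, 2 and 3, a mean of 97.3% ± 0.192 (SD, n = 3), against 0.151%, 0.186% and 0.686% in the controls, a mean of 0.341% ± 0.299. The groups did not overlap, and the exact two-sided permutation test gave p = 0.1, the smallest possible with 3 against 3. Outside these positions the known sites of 18S and 28S held 95.1%, 94.7% and 95% in the same oxidized libraries, given for comparison and not tested. U121 was the highest of the 350 positions in all 3 oxidized libraries, and the sites followed the same order in each: U121, U116, C174, A99, A166, A159, U172, A27.

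The fit across 6718 positions (edgeR's quasi-likelihood test, Benjamini-Hochberg adjusted) called 8 of the 336 positions tested here, and these were the 8 known sites. A call needed an adjusted p under 0.05 together with a log2 fold change of more than 7. The 7 is the study's, which set its filters from the known sites in these libraries, so that known sites pass it is in part a matter of how it was chosen. Over all positions tested the same call was made at 1.53%. The sites' log2 fold changes ran from 10.58 to 18.85 (the last at A27, whose controls are 0, so that it depends on the prior count) with a median of 12.89, the 328 other positions had a median of -2.96 and a highest value of 5.43, and all 6718 positions had a median of -2.25. The scale depends on the normalization: with library totals in place of TMM the median of all positions was -6.26 and that of the sites 8.76, but the sites stood 15.14 (TMM) and 15.02 (totals) above the median of all, as log2 differences. At the adjusted p of 0.0001 that the study required of DESeq2, edgeR called 0 positions here; its smallest adjusted p over 18S and 28S was 0.0004 and all 8 sites had an unadjusted p under 0.05. DESeq2's Wald test called all 8 there. Every oxidized library had a higher CPM than every control library at 8 of the 336 positions, again the known sites, where 1.65% of all positions did so.

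A27 is the site nearest the 5′-end. It had 0 counts in every control library and 1364, 848 and 1426 counts in oxidized NextSeq replicates 1, 2 and 3, or 92 ± 20 CPM (SD, n = 3), which is at least 46.7-fold above the floor of the controls (mean floor of the libraries). It was the weakest of the 8 sites in every oxidized library, and ranked 98 of the 106 known sites of both rRNAs by mean CPM. The adjusted p was 0.00567 (edgeR). Few fragments of any kind ended here: positions 1 to 14 had 0 counts in all 10 libraries, and the 26 positions before A27 held 0.0457% to 0.459% of the counts of the 350 in NextSeq control libraries. The median count of the 10 bases on each side was 107.5, 105 and 23 in control replicates 1, 2 and 3.

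A99 opens the cluster of 7 sites. Its counts were 126, 129 and 180 in NextSeq control and 11652, 11883 and 13704 in oxidized replicates 1, 2 and 3. The CPM was 1.9 ± 0.421 (SD, n = 3) in control and 949 ± 62.1 in oxidized libraries, at least 481.8-fold above the control floor, under which the control mean lies, with an edgeR log2 fold change of 12.95 ± 0.79 (SE; adjusted p = 0.000601). The groups were far apart, and replicates of each group differed little.

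U116 and U121 are the adjoining pair whose guides come from neighbouring snoRNAs. U116 had 252, 183 and 1079 counts in control and 30777, 32781 and 35410 in oxidized replicates 1, 2 and 3, with control replicate 3 the high one. U121 had 120, 186 and 271 counts in control and 55954, 57879 and 65795 in oxidized replicates. The oxidized level of U121, 4580 ± 309 CPM (SD, n = 3), was 1821 times that of its controls, and that of U116, 2526 ± 178, was 378 times (880 times without control replicate 3). Their log2 fold changes were 14.87 ± 0.71 and 12.83 ± 0.93 (SE; edgeR, adjusted p = 0.0004 and 0.00116). Within a library the ratio of U116 to U121 was 0.55, 0.566 and 0.538, a nearly fixed ratio between these libraries.

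A159 and A166 lie 7 bases apart, inside one stretch that pairs with the A159 guides. A159 had 4, 4 and 1045 counts in control and 3673, 3510 and 4294 in oxidized replicates 1, 2 and 3. A166 had 2, 0 and 208 counts in control and 9002, 11515 and 10633 in oxidized replicates. Control replicate 3, from passage 4, held nearly all control counts of both. With all libraries, the log2 fold change was 10.58 ± 2.55 at A159 and 14.32 ± 2.81 at A166 (SE; edgeR, adjusted p = 0.0365 and 0.0359). The control mean of A166 was under the floor, and its oxidized level at least 405-fold above that floor. Without control replicate 3 they were 15.99 and 19.13 (adjusted p = 0.000176 and 0.0062), but the controls left are then far under the floor, so that the size of these values depends on the prior count of the fit. A159 was the site closest to the threshold of all: its adjusted p rose to as much as 0.0585 when 1 library was left out, and it lost its call without control replicate 1 or without any 1 of the oxidized replicates.

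U172 and C174 end the cluster, and of them C174 had the higher oxidized level in all 3 NextSeq libraries. U172 had 4, 6 and 352 counts in control and 1838, 2043 and 1740 in oxidized replicates 1, 2 and 3, again with control replicate 3 high. C174 had 309, 642 and 393 counts in control and 22558, 21082 and 25969 in oxidized replicates. The log2 fold change was 11.06 ± 2.12 at U172 and 12.14 ± 0.9 at C174 (SE; edgeR, adjusted p = 0.0359 and 0.00119), and U172 was at 14.67 (adjusted p = 0.000457) without control replicate 3, with the same limit. With all libraries the control mean of U172 was also under the floor, and its oxidized level at least 73.1-fold above it. U172 stood at 0.0815, 0.0969 and 0.067 of the C174 count in oxidized replicates 1, 2 and 3. With oxidized replicates 2 and 3 as 1 library, 5 sites kept an adjusted p under 0.05 and A159, A166 and U172 did not, and with library totals in place of TMM A159 and U172 fell under a log2 fold change of 7, at 5.97 and 6.49.

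**Figure D2:**
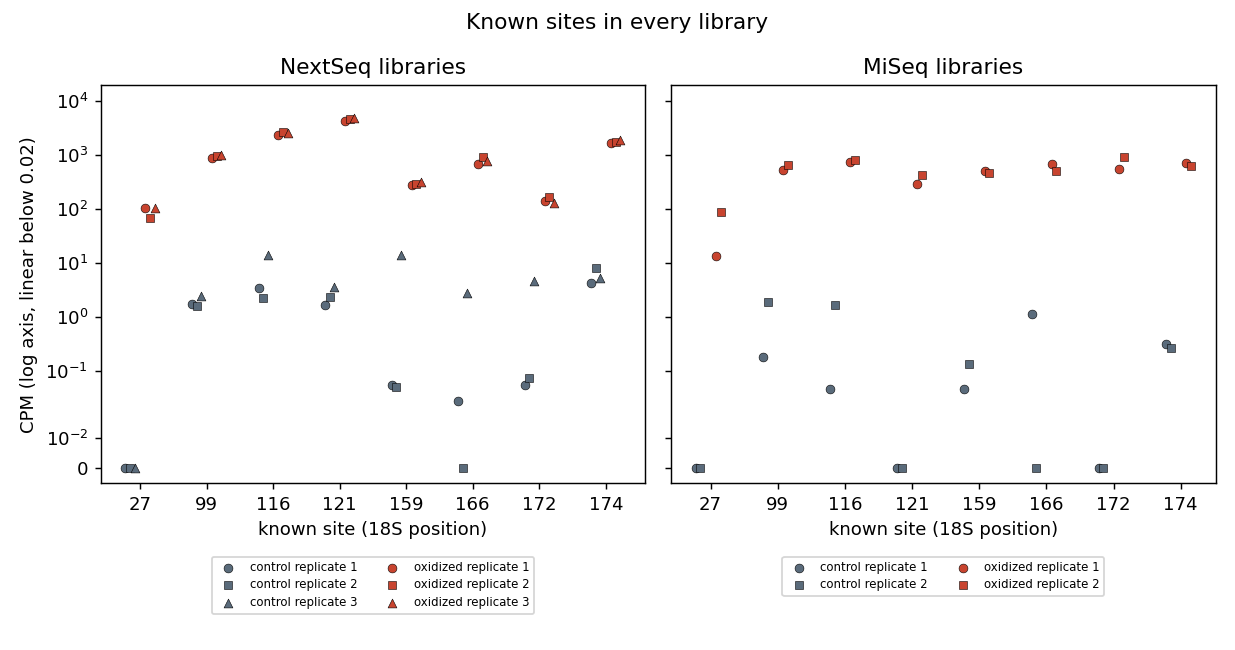
CPM of the 8 known sites in each library (log axis, linear below 0.02), control in grey and oxidized in red, with 1 marker shape per replicate. At every site all oxidized libraries lie above all control libraries, and NextSeq control replicate 3 (triangles) lies well above replicates 1 and 2 at A159, A166 and U172.

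Set beside the other 98 known sites of 18S and 28S, the 8 sites were on the low side in oxidized libraries. Their median was 873 CPM in NextSeq, where the other 98 had a median of 2488, and U121 (rank 26 of 106) and U116 (rank 50) were the only ones of the 8 above the middle of the list. In MiSeq all 8 were below it, with ranks from 76 (U116) to 100 (A27) and U121 at 94, and a median of 599 CPM where the others had 2781. The 8 are 7.55% of the known sites and held 1.17% of known-site counts in NextSeq and 0.721% in MiSeq. These ranks mix methylation with the chance that a fragment ends there and is ligated, and were not tested.

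The control libraries showed a dip at the sites. In NextSeq control replicates 1 to 3, each site's count was divided by the median of neighbours within 10 bases, known sites left out. The median of this ratio over the 8 sites was 0.0811, 0.0726 and 0.155. The same ratio at the other positions had a median of 1.02, 1.08 and 0.983. In control replicate 1 all 8 sites were under 0.5, as were 34.4% of the other positions. In control replicate 2 all 8 were under 0.5 beside 32.8% of the others, and in control replicate 3 it was 6 sites beside 19.9%. Leaving A27 aside, the lowest ratios in control replicate 1 were at A166 and U172, at 0.00348 and 0.0038, and the highest was at U116, at 0.334. The ratios at A166 and U172 rest on 2 and 4 counts, far under the floor, so their order means little. In control replicate 3 they were 0.0801 and 0.174. Control replicate 3 had the shallowest dip of all 5 control libraries, 0.561 at A159. The ratio of 0 at A27 rests on neighbours with few counts themselves. The MiSeq controls had medians of 0.0284 and 0.0225 at the sites and 1 and 1.03 at the others. A low value was thus common at positions not annotated as methylated too, and no test was made of it.

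**Figure D3:**
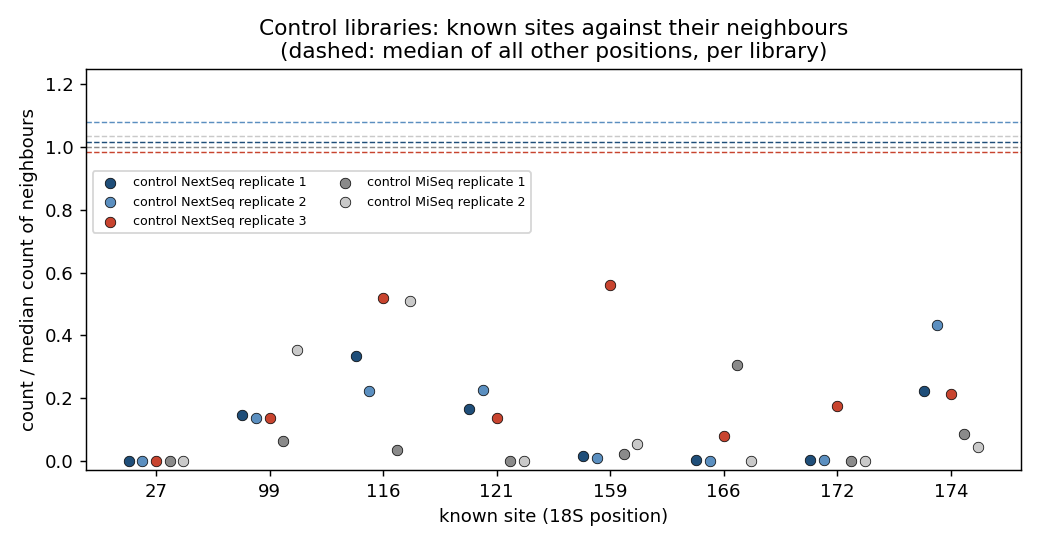
Count at each known site divided by the median count of the neighbouring positions within 10 bases, in the 5 control libraries (linear axis, 1 point per library). All points lie below the dashed lines, which mark the median of the other positions per library, and NextSeq replicate 3 (red) is the highest library at A159 (0.561).

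Most oxidized NextSeq counts fell on the annotated base itself. Summed over the sites, the base before a site held 0.341%, 0.487% and 0.528% of the sites' counts in oxidized NextSeq replicates 1, 2 and 3, and the base after it 0.288%, 0.473% and 0.401%. The position 2 bases before held 0.508%, 0.555% and 0.497%. The largest shares within 2 bases of a single site were at U172, where A173, which also adjoins C174, held 22.5% ± 10.7 of its count and A170 and A171 held 3.44% ± 0.349 and 3.11% ± 2 (SD, n = 3). In control replicates 1, 2 and 3 the base before a site held 287%, 166.5% and 528.5% of the sites' counts and the base after it 2761%, 2215% and 600.5%. With counts within 1 base added to the sites, the oxidized share rose to 98%, 97.8% and 97.8%.

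**Figure D4:**
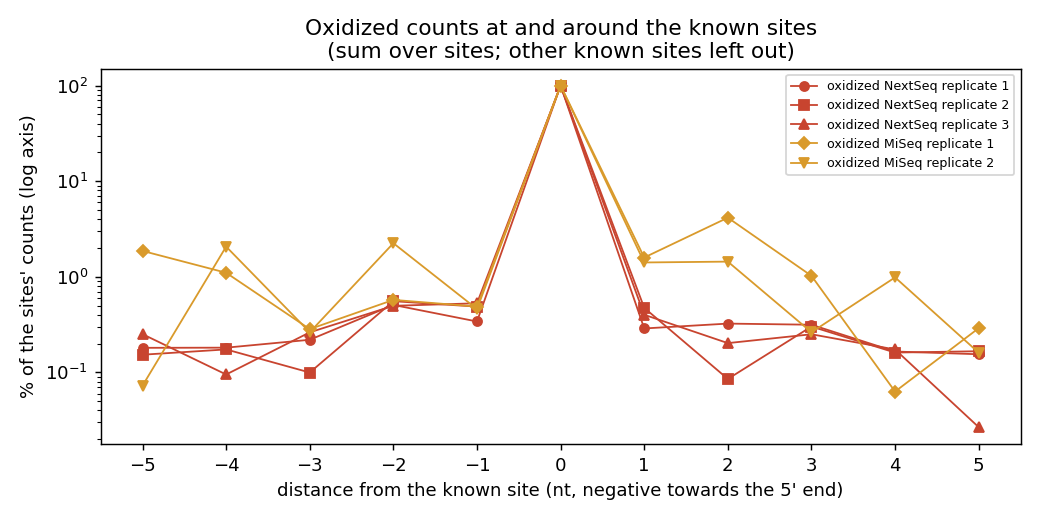
Oxidized counts at distances of 5 bases before to 5 bases after the known sites, summed over sites and given as a percentage of the sites' own counts (log axis), 1 line per library. Every library falls from 100% at the site to 0.288% to 1.59% on the next base.

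Among the 342 other positions, the largest NextSeq log2 fold changes were at U119, A173, U44, C24 and U120, and 3 of these lie within 2 bases of a site. U119, 2 bases before U121, had 213, 448 and 1927 counts in control and 294, 351 and 316 in oxidized replicates 1, 2 and 3, a log2 fold change of 5.43 ± 0.94 (SE; edgeR, adjusted p = 0.0359) on the TMM scale. Its CPM was 11.3 ± 12.4 in control and 24.6 ± 3.44 in oxidized libraries (SD, n = 3), and the ranges overlapped. A173, between U172 and C174, had 574, 310 and 4781 counts in control and 234, 426 and 590 in oxidized replicates, a log2 fold change of 4.76 (adjusted p = 0.0359), also with overlapping CPM. U119 held 0.537% ± 0.0639 of the U121 count (SD, n = 3). A173 held 1.78% ± 0.653 of the count of C174, but 12.7% to 33.9% of that of U172. U120 (3.79, edgeR adjusted p = 0.0588), U44 (4.67, adjusted p = 0.165) and C24 (4.6, adjusted p = 0.0906) did not pass. By CPM U120 was lower in oxidized libraries, at 9.25 ± 2.54 against 14.7 ± 20.2 in control (SD, n = 3). U44 had 54, 54 and 0 and C24 had 2, 4 and 52 counts in oxidized replicates 1, 2 and 3, all under the floor. After A173 and U119, the highest oxidized NextSeq level outside the sites was at U97, 2 bases before A99, with 134, 123 and 192 counts. Its control replicates had 7409, 8467 and 1204. The log2 fold change was 1.01 ± 1.02 on the TMM scale (SE; edgeR, adjusted p = 0.515). By CPM, which uses library totals, U97 was lower in oxidized libraries, at 11.4 ± 2.28 against 74.3 ± 50.5 in control (SD, n = 3).

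Lower values in oxidized libraries were called at 32 of the 336 positions in NextSeq (9.52%), where 18.8% of all positions were called. Of them 29 lie after C174, in the stretch with no annotated site, which is 16.5% of the 176 positions tested there. The count depends on single libraries of both groups. It was 0 without control replicate 1, 1 without control replicate 2 and 42 without control replicate 3. Without oxidized replicates 1, 2 and 3 it was 12, 8 and 8. It was 1 with control replicates 1 and 2 as 1 library, and 0 with oxidized replicates 2 and 3 as 1. It was 208 with library totals in place of TMM. Some called positions, such as G240, G274 and G288, had control means of 5.62, 8.27 and 8.53 CPM. These are under the oxidized NextSeq floor of 10.9 to 12.2 CPM, while others, such as G177 at 320.5 CPM, were far above it. The stretch after C174 took 69.7%, 69% and 54.5% of what the 350 positions held in control replicates 1, 2 and 3, and 0.562%, 0.931% and 0.632% in oxidized ones. In the oxidized libraries 85 of its 176 positions had 0 counts in all 3 replicates and no position exceeded 110 counts.

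The 3 positions with the highest mean CPM in NextSeq controls, which replicates 1 and 2 set, lie in that stretch. C192 had 73057, 83885 and 729 counts in control and 2, 16 and 52 in oxidized replicates 1, 2 and 3, and was the highest of the 350 positions in control replicates 1 and 2, with 13.5% and 13.6% of their counts. G177 had 33347, 37970 and 2439 counts in control and 0 in each oxidized replicate. C247 had 33407, 37728 and 1169 in control and 8, 2 and 0 in oxidized replicates. All 3 were far lower in control replicate 3, whose highest position was A141 with 1.59%. G177 passed the test of a lower value (edgeR, adjusted p = 0.0363), while C192 (log2 fold change -4.94 ± 1.96, adjusted p = 0.112) and C247 (-6.57 ± 2.01, adjusted p = 0.0574) did not.

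In the MiSeq pilot 7 of the 8 sites stood out, with more counts between them. A27 did not in oxidized replicate 1, with 21 counts where A150, not a site, had 122. The 8 sites held 76.7% and 77.7% of the counts of the 350 positions in oxidized replicates 1 and 2 (mean 77.2% ± 0.672, n = 2). In control they held 0.0649% and 0.137%, with no overlap. The exact permutation test of 2 against 2 libraries cannot give a p under 1 in 3. Outside these positions the known sites held 59.1% and 59.2%. The fit called 10 of 315 positions above a log2 fold change of 7, the 8 sites and 2 others, where 2.36% of all 6661 positions were called. The 2 others were A38, with 4 and 4 counts in control and 2 and 50 in oxidized replicates 1 and 2, and C53, with 2 and 8 in control and 52 and 4 in oxidized replicates. Each of these 2 calls (log2 fold change 7.62 and 7.15; edgeR, adjusted p = 0.0337 and 0.0306) rests on about 1 step of 50 in a single library, under the floor. Every oxidized CPM was above every control CPM at 34 of the 315 positions (10.8%), where 14.4% of all positions showed it. Lower values were called at 123 of 315 (39%), where 51.6% of all positions were called, and at 0 when either control library was left out. After C174 it was 95 of 176 (54%). Among the called positions, G95, U100 and G211 had control means of 31.2, 26.3 and 59.4 CPM. These lie under the oxidized MiSeq floor of 95.6 to 110.8 CPM, so 0 oxidized counts at such a position do not measure a drop. Of the 32 positions called lower in NextSeq, 21 (65.6%) were also among the 123 in MiSeq (17.1% of these). The same overlap over all positions is not given, so whether it is particular to this stretch was not tested. The limit set by the oxidized floor holds for this overlap too.

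The MiSeq values of the sites were more even. A99 had 8 and 58 counts in control and 837 and 891 in oxidized replicates 1 and 2. U116 had 2 and 50 in control and 1177 and 1109 in oxidized, and U121 had 0 and 0 in control and 453 and 582 in oxidized replicates. A159 had 2 and 4 in control and 794 and 630 in oxidized replicates. At these 4 sites the oxidized libraries were all above the controls and, apart from U121, close to each other. A166 had 50 and 0 in control and 1090 and 692 in oxidized, U172 had 0 and 0 in control and 861 and 1231 in oxidized, and C174 had 14 and 8 in control and 1118 and 836 in oxidized replicates. The control means of these 7 sites were all under the floor, and the oxidized levels were at least 86.2-fold (U121) to 188.2-fold (U116) above it. The adjusted p of the 7 ran from 0.00616 at C174 to 0.0264 at A166 (edgeR), and their fitted log2 fold changes depend on the prior count. A27, with 0 and 0 counts in control and 21 and 118 in oxidized replicates, stayed under 3 steps of 50 in every library, so no fold is given, and it lost its call when either control library was left out (adjusted p up to 0.192).

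The 2 experiments differed in how counts were divided among the sites. U121 took 39.95% ± 0.257 of the counts of the 350 positions in oxidized NextSeq libraries (SD, n = 3) and 6.45% ± 1.38 in oxidized MiSeq libraries (n = 2). U172 went the other way, from 1.26% ± 0.175 in NextSeq to 13.1% ± 3.75 in MiSeq, as did A159, from 2.55% ± 0.123 to 8.81% ± 1.1. U116 took 22% ± 0.433 and 14.2% ± 0.0517, and C174 15.5% ± 0.876 and 12.1% ± 2.01. A166, at 6.94% ± 0.836 and 11% ± 3.07, A99, at 8.28% ± 0.113 and 10.7% ± 0.886, and A27, at 0.809% ± 0.203 and 0.879% ± 0.885, complete the sites. The order of sites was the same in the 3 NextSeq libraries, whereas MiSeq replicate 1 had U116 first and MiSeq replicate 2 had U172 first. Within closely spaced pairs, the ratio of U116 to U121 was 0.552 ± 0.0142 in NextSeq and 2.25 ± 0.49 in MiSeq, and the ratio of U172 to C174 was 0.0818 ± 0.015 and 1.121 ± 0.497. No library of 1 experiment reached the ratios of the other. A ratio within a library does not depend on the scaling between libraries, and 3 against 2 libraries leave no exact test that could pass 0.05.

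**Figure D5:**
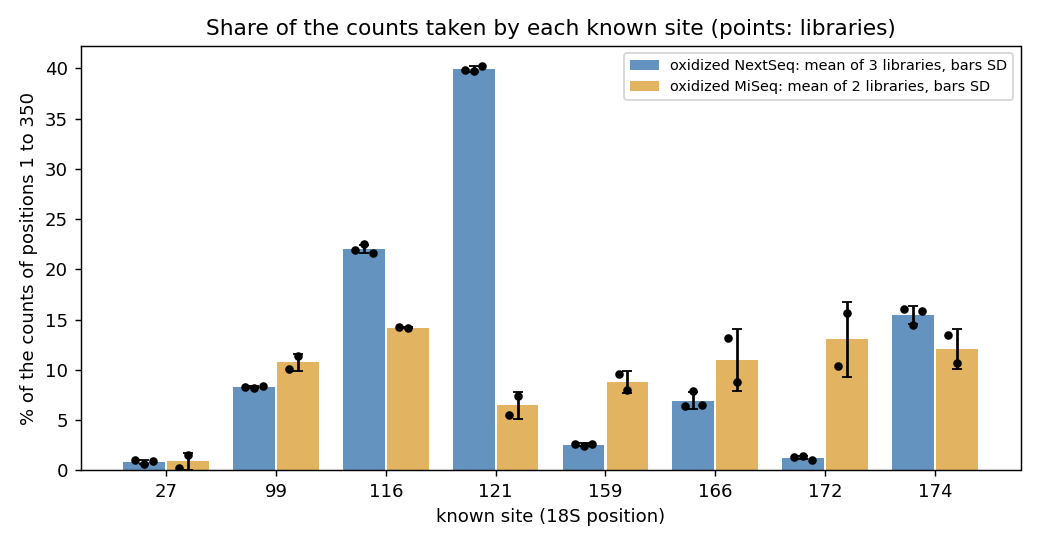
Percentage of the counts of 18S positions 1 to 350 at each known site in oxidized NextSeq (blue, n = 3) and MiSeq (orange, n = 2) libraries, as mean with SD and 1 point per library, on a linear axis from 0. U121 takes 39.95% in NextSeq and 6.45% in MiSeq, and U172 takes 1.26% and 13.1%.

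In a joint fit of all 10 libraries, the oxidized level differed between the experiments at 4 of the 8 sites, each higher in NextSeq on the TMM scale: U121 by a log2 difference of 7.2 ± 0.67, C174 by 4.94 ± 0.76, U116 by 5.21 ± 1.29 and A99 by 4.2 ± 0.98 (SE; edgeR, adjusted p = 0.00657, 0.00657, 0.0308 and 0.024). Without either MiSeq oxidized replicate, U121 and C174 passed and U116 and A99 did not. A99 was also lost with counts divided by 50, A27 was gained with DESeq2 or with 18S fitted alone, and A159 was gained without NextSeq control replicate 3, each higher in NextSeq. With library totals in place of TMM only U121 passed, at 3.67 (adjusted p = 0.00966), while C174, U116 and A99 were at 1.41, 1.69 and 0.67 (adjusted p = 0.109, 0.361 and 0.687). U172 turned with the scaling, from 1.18 (adjusted p = 0.716) to -2.34 (adjusted p = 0.341), and A159 from 2.8 (adjusted p = 0.334) to -0.73 (adjusted p = 0.946), and neither passed. Over the 336 positions 23 were called higher in NextSeq (6.85%), where 6.52% of all positions were, and 8 lower (2.38%), where 5.29% were. These 31 calls became 13 without NextSeq control replicate 1 or 2 or with both as 1 library, 10 without either MiSeq control and 7 without either MiSeq oxidized replicate.

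The ratio of oxidized to control was called different between the experiments at 7 of 336 positions, 2.08%, where 8.2% of all positions were called, and at 0 of the 8 sites (edgeR). At an unadjusted p under 0.05 there were 2 sites, A99 with an interaction of 3.04 ± 1.17 (adjusted p = 0.142) and U172 with -6.82 ± 2.57 (adjusted p = 0.141), both log2 differences of the NextSeq minus the MiSeq ratio with SE. DESeq2 called A99, and with library totals in place of TMM U121 and C174 were called, both lower in NextSeq. Without NextSeq control replicate 3 A159 was called, higher in NextSeq. U172 and U121 have 0 counts in both MiSeq controls, so their interactions depend on the prior count, and at A27, whose controls are all 0, the interaction could not be estimated. The 7 positions called are U119, U120, U160, A38, C53, A231 and A232, and 0 positions were called when NextSeq control replicate 1 or 2 or either MiSeq control was left out or NextSeq control replicates 1 and 2 were taken as 1 library, 3 without MiSeq oxidized replicate 2 and 13 without NextSeq control replicate 3. U119 and U120 had oxidized counts in every NextSeq library and 0 in both MiSeq libraries, where 3 steps of 50 counts amount to 95.6 to 110.8 CPM; the mean of U119 in oxidized NextSeq libraries was 24.6 CPM.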

How the data were processed

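RNA 3′-ends of 10 PA1 libraries were analysed. The authors trimmed reads with cutadapt 1.12, collapsed duplicates by a 6-base randomer and adjoining RNA bases, aligned them with TopHat2 2.1.1 to hg19 (GRCh37), where each rRNA has 2 copies, and converted them with SAMtools 0.1.19 and BEDtools (tools and builds in part from the submitters' processing notes). The deposited counts are described by the authors as sense reads ending at each base, not normalized, and reads of the 2 copies cannot be separated. Lines for 5.8S, present in part of the files, were at 0 and were dropped. The 5 deposited tables of the authors' DESeq2 comparisons hold fold changes and p-values and were not used.

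Counts were fitted with edgeR 4.0.16 in R 4.3.3 (glmQLFit and glmQLFTest, TMM, positions with at least 1 count), NextSeq and MiSeq separately and all 10 libraries jointly, with Benjamini-Hochberg adjustment over all of 18S and 28S. SE is the log2 fold change over the root of F. Calls needed an adjusted p under 0.05, and a log2 fold change above 7 where stated. The scripts were tested on simulated data. CPM uses library totals. DESeq2 1.42.0 and other normalizations, filters, units and subsets were alternatives. Known sites and their guides came from the study's list, without its values. The sequences were read from GRCh37 and GENCODE v44lift37, and synonyms from RefSeq. Positions named are the known sites, the 5 others with the largest NextSeq log2 fold change, others called above 7, and the 3 highest control positions and 3 highest oxidized positions that are not sites in NextSeq; neighbours within 2 bases of a site, those flagged by the joint fit, A141 and A209 were added for their values. The positions, lists and thresholds were chosen with earlier results of these data known.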

Additional observations from a re-analysis of the deposited data

Results flagged for a closer look

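At 7 positions the oxidized-to-control ratio differed between the NextSeq and the MiSeq experiment by the test of the difference itself (joint edgeR fit, quasi-likelihood test, adjusted p under 0.05). None is a known site. The 7 are 2.08% of the 336 positions tested here, where 8.2% of all positions were called. The values are log2 differences, NextSeq minus MiSeq, and where a group is at 0 they depend on the prior count of the fit and bound nothing.

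The ratio was higher in NextSeq at U119, by 14.51 ± 3.22 (SE; adjusted p = 0.0322), and at U120, by 13.27 (adjusted p = 0.03), the bases directly before U121. U120 had 146, 78 and 142 oxidized counts in NextSeq replicates 1, 2 and 3 and 0 and 0 in MiSeq. The ratio was lower in NextSeq at U160, by -6.31 (adjusted p = 0.0288), the base after A159, with 5, 2 and 8 oxidized counts in NextSeq and 24 and 62 in MiSeq. It was lower at A38, by -8.89 (adjusted p = 0.0443), with 2, 0 and 1 oxidized counts in NextSeq and 2 and 50 in MiSeq, and at C53, by -15.2 (adjusted p = 0.0472), with 0 in NextSeq and 52 and 4 in MiSeq. In the stretch without known sites it was lower at A231, by -14.51 (adjusted p = 0.0335), and at A232, by -15.56 (adjusted p = 0.017). Both had 0 oxidized counts in NextSeq, where A231 had 8 and 50 and A232 8 and 4 in MiSeq. All MiSeq oxidized values here are under 3 steps of 50 counts. No position was called with counts divided by 50. No group has 4 or more libraries, so no test for a single outlying library was made.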

How the results depend on the processing

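At the known sites, all 160 alternative NextSeq values and all 112 MiSeq values kept their direction; 144 and 94 stayed past the adjusted p of their setting, and those that did not came with a threshold of 0.0001, with the replicate block in MiSeq, with oxidized NextSeq replicates 2 and 3 as 1 library, with library totals (A159), and with libraries left out (A159 in NextSeq, A27 in MiSeq). Sites that kept the adjusted p but fell under a log2 fold change of 7 were U172 with library totals (6.49) and, in MiSeq, A27 with counts divided by 50 (6.76). Alternatives not named for a count below left it within 1.5 times.

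The count above a log2 fold change of 7 was 8 in NextSeq and 10 in MiSeq. A threshold of 0.0001 gave 0 and 0, although DESeq2 called 8 and 10 there, and oxidized NextSeq replicates 2 and 3 as 1 library, an alternative chosen after seeing the data, gave 5. Control replicates 1 and 2 as 1 library, also chosen after seeing the data, left 8 there, with 1 lower call, 0 differing ratios and 13 differing oxidized levels. Leaving out 1 library gave 7 to 8 and 7 to 10. Same-numbered control and oxidized NextSeq libraries did not deviate together (r = 0.024, -0.016 and 0.013 over 2212 positions). In MiSeq r was -0.009 over 2610 positions for both numbers. With 2 libraries per group these are by construction 1 value and not a repeat. Numbers 1 and 2 share 1 passage, so the numbers were not taken as pairs. With a replicate block on that number these counts were 8 and 0, and the lower calls 1 and 0.

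The 32 NextSeq positions called lower became 0 (threshold 0.0001; counts divided by 50; oxidized replicates 2 and 3 as 1 library), 86 (DESeq2), 208 (library totals), 53 (filterByExpr), 53 (passage as covariate), 58 (passage 6 only) and 0 to 42 (1 library left out). The 123 in MiSeq became 0 (threshold 0.0001), 4 (counts divided by 50) and 0 to 109 (1 library left out). The 7 positions whose ratio differed between experiments became 0 (threshold 0.0001; counts divided by 50), 41 (DESeq2), 28 (library totals), 11 (oxidized replicates 2 and 3 as 1 library) and 0 to 13 (1 library left out). The 31 whose oxidized level differed became 0 (threshold 0.0001), 79 (DESeq2), 3 (counts divided by 50) and 7 to 43 (1 library left out). The cause was not tested.

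The known-site share, oxidized minus control, was 96.96 percentage points in NextSeq and 77.08 in MiSeq. It was 97.36 and 82.71 with counts divided by 50, 92.27 and 75.35 with counts within 1 base added, and 96.85 to 97.13 and 76.61 to 77.56 with 1 library left out.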
